A study of Mus musculus with 6 samples.

Results

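Neighbouring peaks here are ATAC-seq peaks from the list specific to Mir137-deleted microglia (cKO) that overlap, or lie within 500 bp of, a peak from the list specific to control microglia (cWT), together with those cWT-specific peaks. Members were chosen by measured peak positions in both lists, which gave 377 of 8615 cKO-specific peaks (4.38%) and 369 of 3490 cWT-specific peaks (10.6%), which is 746 of 12105 peaks. They form 381 pairs of opposite lists and lie in 365 of the 11198 loci (3.26%), where a locus is a run of specific peaks of either list with gaps of up to 500 bp. The other 10833 loci hold peaks of 1 list, cKO in 7794 and cWT in 3039.

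All mice were C57BL/6J aged 8 weeks, and microglia, the resident macrophages of the brain, were sorted from brain. The cKO group was Mir137loxP/loxP;Tmem119-CreERT2 and the cWT group Mir137+/+;Tmem119-CreERT2, so both carried a tamoxifen-dependent Cre driven from a microglial gene, and both received tamoxifen on 7 days in a row, given at 7 to 8 weeks of age. About 50000 cells were taken, with 3 libraries per genotype, and the 4 mice that the design states are not tied to libraries. The peak lists hold 1 value per peak for a whole genotype, so the depth and the spread between libraries are unknown, and every interval and test below covers counting error over loci alone.

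ATAC-seq reads out DNA that the Tn5 transposase can reach. Promoters and enhancers open when transcription factors displace or shift nucleosomes, and a peak is a stretch that a caller marks as open. In microglia the factors PU.1, IRF8, MEF2C, SALL1 and SMAD proteins are known to shape such elements. miR-137 is a small RNA that pairs with target transcripts through its seed and is best known from neurons.

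The promoters where peaks of opposite lists met show how close the boundaries were. RefSeq start-site windows of build GRCm38.p6, each running from 250 bases before to 50 bases after an annotated start, were covered by 57 neighbouring loci at 60 coding genes. Of 62 covered windows, 24 held bases of cKO-specific peaks alone, 25 of cWT-specific peaks alone and 13 of both lists, and 9 of these contained bases called in both lists. The first set shows windows in which the peaks overlapped, with the shared bases in capitals. Ptpn14 (chr1:189728018-189728317, plus strand) encodes a tyrosine phosphatase, and its 75 shared bases run from -123 to -49, counting the start site as 1 with no base 0. Ccnb1 (chr13:100786437-100786736, minus strand) encodes cyclin B1 of the mitotic kinase, and its window ends with 15 shared bases at 36 to 50. Itpka (chr2:119742087-119742386, plus strand), an inositol trisphosphate kinase gene, holds 47 shared bases from -173 to -127. Blvra (chr2:127070407-127070706, plus strand), the biliverdin reductase gene, holds 33 from -177 to -145. Ccdc180 (chr4:45890053-45890352, plus strand) begins with 52 shared bases. Pdzd4 (chrX:73824920-73825219, minus strand) holds 57, from -46 to 11, and was the 1 gene whose start site lay in both peaks among the 61 examined below.
Ptpn14: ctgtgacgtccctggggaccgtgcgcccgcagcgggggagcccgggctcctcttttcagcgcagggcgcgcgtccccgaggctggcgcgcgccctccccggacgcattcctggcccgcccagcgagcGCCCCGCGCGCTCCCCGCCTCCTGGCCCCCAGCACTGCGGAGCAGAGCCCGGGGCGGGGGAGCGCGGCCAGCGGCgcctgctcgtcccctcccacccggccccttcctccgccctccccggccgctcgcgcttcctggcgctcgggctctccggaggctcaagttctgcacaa
Ccnb1: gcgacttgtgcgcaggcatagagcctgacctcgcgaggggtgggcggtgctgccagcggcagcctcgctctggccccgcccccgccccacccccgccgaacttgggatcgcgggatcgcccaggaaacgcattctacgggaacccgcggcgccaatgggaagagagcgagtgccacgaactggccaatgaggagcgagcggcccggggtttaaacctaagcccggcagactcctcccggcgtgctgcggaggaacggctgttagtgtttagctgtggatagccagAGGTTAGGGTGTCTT
Itpka: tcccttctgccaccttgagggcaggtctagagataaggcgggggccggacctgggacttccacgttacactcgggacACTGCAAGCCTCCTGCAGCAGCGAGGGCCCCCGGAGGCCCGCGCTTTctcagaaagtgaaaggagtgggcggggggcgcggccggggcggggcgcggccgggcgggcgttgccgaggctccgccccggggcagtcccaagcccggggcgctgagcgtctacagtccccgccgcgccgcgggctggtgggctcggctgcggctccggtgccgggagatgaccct
Blvra: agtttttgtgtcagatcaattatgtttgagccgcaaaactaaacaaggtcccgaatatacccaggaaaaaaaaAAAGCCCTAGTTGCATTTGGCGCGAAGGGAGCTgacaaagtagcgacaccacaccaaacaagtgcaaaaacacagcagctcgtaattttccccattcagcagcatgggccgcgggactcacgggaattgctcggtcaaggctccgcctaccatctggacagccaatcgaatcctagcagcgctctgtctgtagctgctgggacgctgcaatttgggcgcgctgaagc
Ccdc180: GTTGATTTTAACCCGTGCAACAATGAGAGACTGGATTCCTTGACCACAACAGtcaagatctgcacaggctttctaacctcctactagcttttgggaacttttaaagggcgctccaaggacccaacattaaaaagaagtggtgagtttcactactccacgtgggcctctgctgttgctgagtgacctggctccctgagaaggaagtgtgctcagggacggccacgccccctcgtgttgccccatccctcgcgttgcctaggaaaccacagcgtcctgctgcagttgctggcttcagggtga
Pdzd4: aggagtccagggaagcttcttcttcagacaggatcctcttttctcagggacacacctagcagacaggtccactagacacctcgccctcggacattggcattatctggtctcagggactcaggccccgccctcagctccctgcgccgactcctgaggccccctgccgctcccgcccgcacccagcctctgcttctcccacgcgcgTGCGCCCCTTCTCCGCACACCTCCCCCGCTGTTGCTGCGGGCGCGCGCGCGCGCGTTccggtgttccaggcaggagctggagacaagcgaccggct

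The second set shows windows in which a few bases separated the peaks, with the uncalled gap in capitals. Dennd2c (chr3:103140076-103140375, plus strand), a gene of the DENN family of Rab activators, had 20 bases between the cKO-specific peak upstream and the cWT-specific peak that crosses the start site. Ebf3 (chr7:137314396-137314695, minus strand), a transcription factor gene, had 3, with the cWT-specific peak upstream. Rpp25 (chr9:57503852-57504151, plus strand), a gene of an RNase P subunit, had 21, with the cWT-specific peak upstream and the cKO-specific peak across the start site.
Dennd2c: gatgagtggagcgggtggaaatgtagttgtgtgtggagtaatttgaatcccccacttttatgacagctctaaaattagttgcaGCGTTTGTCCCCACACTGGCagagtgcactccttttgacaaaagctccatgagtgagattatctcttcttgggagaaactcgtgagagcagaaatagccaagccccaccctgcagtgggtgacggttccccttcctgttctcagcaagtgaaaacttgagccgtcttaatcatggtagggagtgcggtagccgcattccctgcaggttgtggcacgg
Ebf3: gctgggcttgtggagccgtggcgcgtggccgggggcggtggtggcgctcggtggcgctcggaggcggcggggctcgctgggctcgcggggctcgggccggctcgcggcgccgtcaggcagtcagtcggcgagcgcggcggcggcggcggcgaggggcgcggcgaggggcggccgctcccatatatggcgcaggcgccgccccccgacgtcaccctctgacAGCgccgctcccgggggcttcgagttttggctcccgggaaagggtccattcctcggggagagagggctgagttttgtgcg
Rpp25: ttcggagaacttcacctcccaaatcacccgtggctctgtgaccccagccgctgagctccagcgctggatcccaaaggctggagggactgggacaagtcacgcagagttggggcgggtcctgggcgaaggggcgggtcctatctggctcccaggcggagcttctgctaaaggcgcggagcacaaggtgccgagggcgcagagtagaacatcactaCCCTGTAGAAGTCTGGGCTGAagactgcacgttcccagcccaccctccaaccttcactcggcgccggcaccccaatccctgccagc

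The shared or intervening bases ranged from GC-rich to GC-poor. They were 85.3% G or C at Ptpn14 and 44.2% at Ccdc180. The motif GGGCGGG, the core bound by KLF and SP factors, was found inside the capitals at Ptpn14 alone among these 9 windows (-72 to -66), and outside them at Ccnb1, Itpka, Pdzd4, Ptpn14 and Rpp25.

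In most pairs the peaks of opposite lists overlapped at their edges or lay up to 50 bp apart. Of the 381 pairs, 184 (48.3%) overlapped by at least 1 bp, 7 adjoined with no base between them, 88 were 1 to 50 bp apart and 19 were 51 to 100 bp apart. The remaining pairs thinned out with distance, with 26 at 101 to 200 bp, 24 at 201 to 300 bp, 23 at 301 to 400 bp and 10 at 401 to 500 bp. Midpoints of paired peaks were a median of 370.5 bp apart (range 158.5 to 1034.5 bp). No overlap exceeded 30% of either peak (below), so centres could not coincide in these lists. A neighbouring locus was a median of 730 bp wide (range 372 to 2147 bp). Loci with 2 or more peaks of 1 list had median widths of 738.5 bp for cKO (432 loci) and 671 bp for cWT (78 loci). Because positions chose the members, these figures are a description and carry no test.

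**Figure D1:**
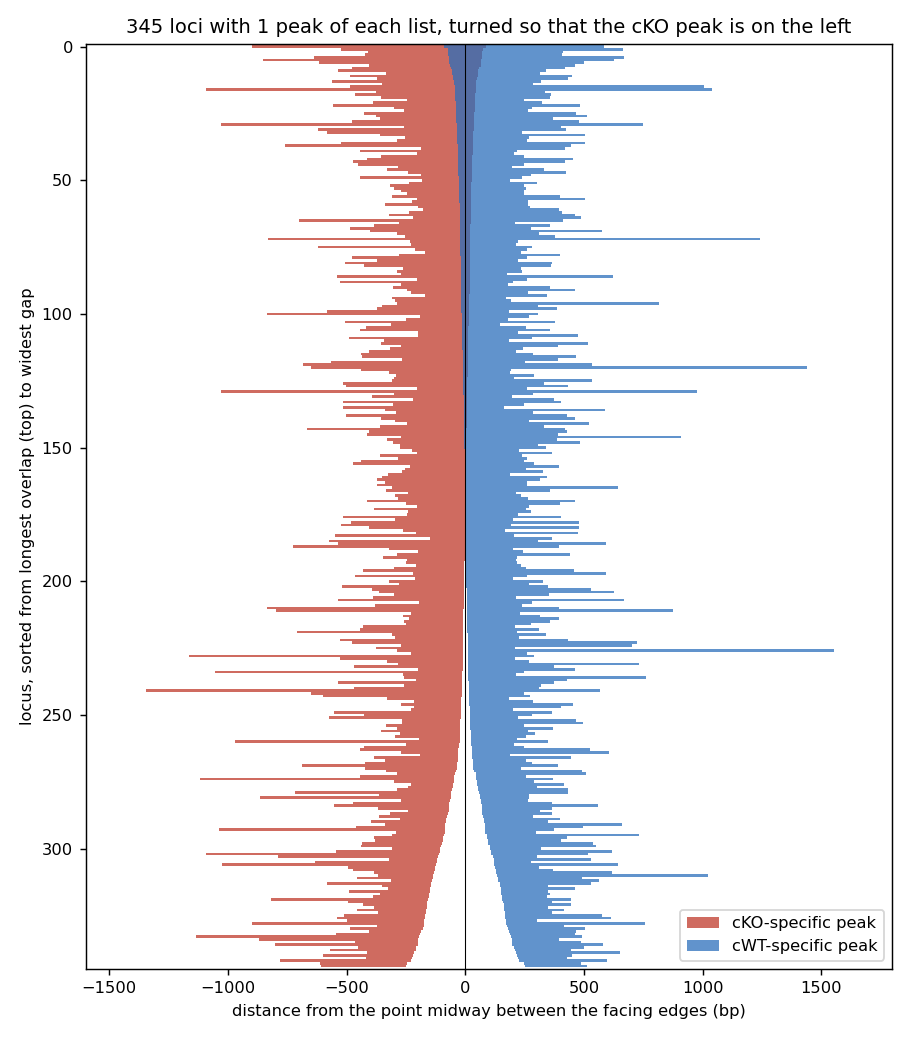
Each row is 1 of the 345 loci with a single peak of each list, turned so that the cKO-specific peak (red) lies left of the cWT-specific peak (blue), and the horizontal axis gives the distance in bp from the point midway between their facing edges. Overlaps (dark, top) reach 179 bp and gaps (white, bottom) reach 500 bp. Every row is drawn so that the peaks extend away from each other.

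Overlaps were short in every case. The shared stretch had a median of 37.5 bp and a maximum of 179 bp, was 10 bp or less in 28 pairs and exceeded 100 bp in 14. Taking the larger share of the 2 peaks in each pair, 43 pairs shared up to 5%, 31 over 5% up to 10%, 29 up to 15%, 39 up to 20%, 22 up to 25% and 20 up to 30%. No pair shared more than 30%, and the highest share, 29.96%, occurred at Dnajc2 and Psmc2. The counts end at 30% without a taper. The sources used here do not say how the authors chose specific peaks, and an overlap limit in that step was not tested. The longest overlaps were 179 bp near Rab11fip4, an effector of the recycling GTPase Rab11, 146 bp at Echs1, a mitochondrial fatty acid oxidation enzyme gene, and 145 bp at Dnajc2, a ribosome-associated co-chaperone gene. Lrrfip1 followed with 142 bp inside the gene, and Cnga2, a cyclic nucleotide-gated channel gene, with 138 bp at 13266 bp from the gene's nearest end.

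Neither genotype held a fixed side. The cKO-specific peak had the lower coordinate in 187 pairs and the cWT-specific peak in 194. The cKO-specific peak was wider in 209 pairs, the cWT-specific peak in 171, and 1 pair was of equal width. Median widths were 327 bp for cKO members against 313 bp for the rest of that list, and 306 bp for cWT members against 323 bp.

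The closeness of opposite peaks was concentrated below 50 bp. From each cKO-specific peak, the nearest cWT-specific peak overlapped in 184 cases and was 0 to 50 bp away in 95, which is 186 peaks per 100 bp of distance. The same density was 36.0 at 51 to 100 bp, 24.0 at 101 to 250 bp, 17.6 at 251 to 500 bp, 10.2 at 501 to 1000 bp and 7.60 at 1001 to 2000 bp. Over all cKO-specific peaks the median distance to a cWT-specific peak was 98664 bp. Within a list, 536 cKO-specific peaks had another cKO-specific peak within 50 bp and 103 cWT-specific peaks another cWT-specific peak, and no peaks of 1 list overlapped each other. The density was low on either side of the 500 bp limit. Just inside it lay the pairs near Cyria (gap 500 bp, signals 17.5 in cKO and 8.38 in cWT) and near Cdc7 (491 bp, 17.4 and 9.65). Just outside lay the pair near Ehf (501 bp, 8.02 and 11.3).

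**Figure D2:**
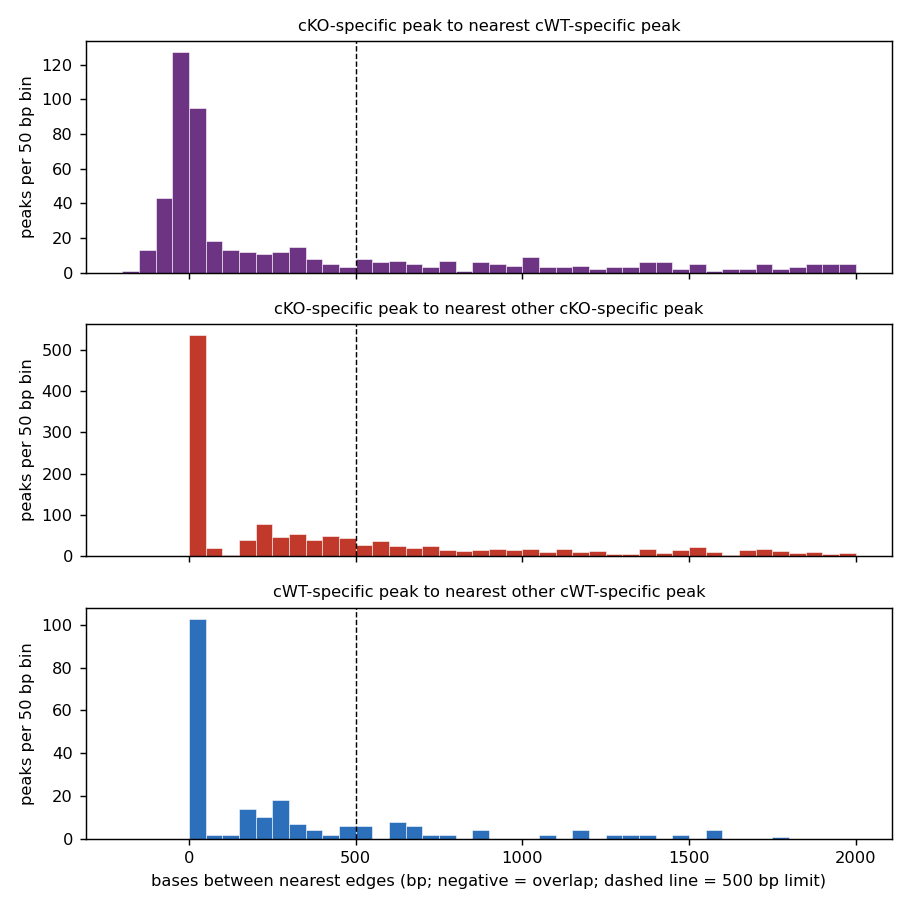
Histograms of the distance in bp from each peak to the nearest peak, in bins of 50 bp with negative values for overlap: cKO-specific to cWT-specific (top), cKO-specific to another cKO-specific (middle) and cWT-specific to another cWT-specific (bottom). Overlaps occur between lists in 184 cases and in none within a list, and all panels are highest next to 0.

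Most neighbouring loci were simple. In 345 of the 365 there was 1 peak of each list, in the order cWT then cKO along the chromosome in 174 and cKO then cWT in 171. The other 20 held 3 peaks, of which 7 had a cWT-specific peak between cKO-specific peaks and 1, near Hoxa5, which was picked after its values were seen, a cKO-specific peak between cWT-specific peaks. In 4 of the 20 a peak of the locus was itself over 500 bp from the opposite list and is not a member. In 7 of the 20, the peaks of the same list adjoined with an equal signal, as at Nbas, a Golgi-to-ER transport gene (both 30.8), and may be parts of 1 region. The same may hold for cKO-specific peaks of equal signal that did not adjoin. These were assigned to Taok1 (499 bp apart), Rad51b (241 bp) and Slc9a9 (36 bp). The locus nearest Taok1, a stress-responsive kinase gene, held 2 cKO-specific peaks (both 37.3) 499 bp apart around a cWT-specific peak (22.6). Senp2, a SUMO protease gene, held 2 cKO-specific peaks (26.5 and 7.96) around a cWT-specific peak (24.5) inside the gene. Near Cd180, a Toll-like receptor homologue that modulates lipopolysaccharide responses, cKO-specific peaks of 17.3 and 15.9 flanked a 975 bp wide cWT-specific peak of 23.4.

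The authors' signal, whose scale is not stated, ran high among neighbouring peaks relative to the rest of each list. Its median was 20.1 in cKO members against 16.3 in the rest of the cKO list, and 18.2 in cWT members against 13.3 in the rest of the cWT list. As percentiles within their own lists the member medians were 70.8 and 73.1. By distance, overlapping pairs had medians of 21.7 (cKO) and 19.6 (cWT), the 7 adjoining pairs 20.1 and 16.6, pairs 1 to 50 bp apart 20.2 and 18.4, and pairs 51 to 500 bp apart 17.0 and 14.3. Overlapping pairs were highest and the most separated pairs lowest in cKO and cWT, without a steady gradient in between. In the 345 loci with 1 peak of each list, both peaks exceeded the median signal of their own list in 207, both did not in 48, the cKO-specific peak alone did in 40 and the cWT-specific peak alone in 50. Spearman's rho between the paired signals was 0.555, given as a description without a test, because the pairs were chosen by their closeness.

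**Figure D3:**
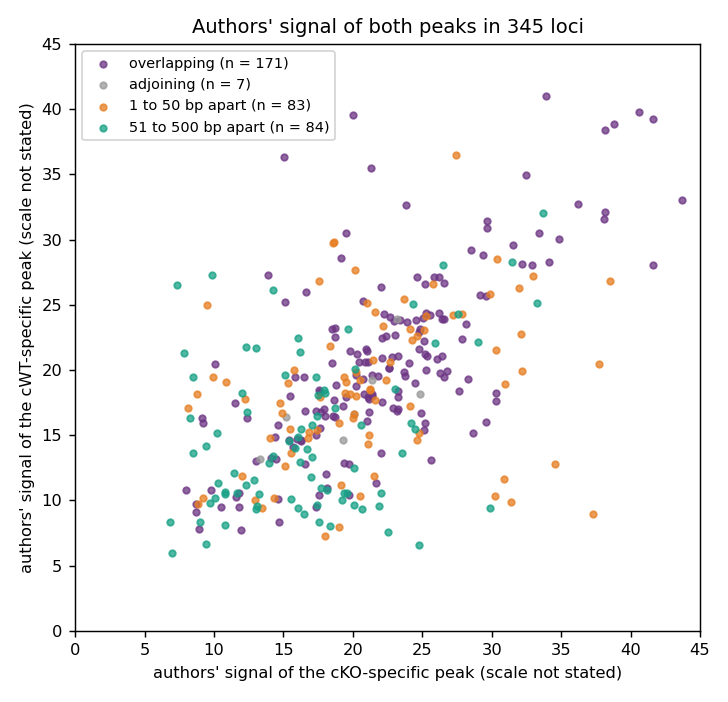
Each point is 1 of the 345 loci with a single peak of each list, with the authors' signal of the cKO-specific peak on the horizontal and of the cWT-specific peak on the vertical axis (scale not stated), coloured by the gap. Overlapping pairs (purple, n = 171) reach the highest values in both lists, and pairs 51 to 500 bp apart (green, n = 84) lie lower, with medians over all such pairs of 17.0 and 14.3.

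The p-values that the authors deposited were mostly large. A p-value of 0.5 or less was carried by 60 cKO members (15.9%; 12.1% of the whole cKO list) and by 36 cWT members (9.76%; 6.16% of the whole cWT list). Peaks that the authors named primary, which have the lowest p-values, numbered 16 among cKO members (4.24%; 2.82% of the list) and 4 among cWT members (1.08%; 1.38% of the list). These shares lie within a few percentage points of their lists, and the sources used here do not say what the p-value tests. The lowest adjusted p-value among members was 0.194 in cKO and 0.420 in cWT.

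Both peaks had a p-value of 0.5 or less in 19 pairs, of which 15 overlapped and 4 were 1 to 50 bp apart. Both were named primary in 2. The first lies 6250 bp from Rab11fip4, with a cWT-specific peak at chr11:79703524-79704199 (signal 32.1, the authors' p = 0.159) and a cKO-specific peak at chr11:79704021-79705007 (signal 38.2, p = 0.00574). The second is Echs1, with a cKO-specific peak at chr7:140115647-140116241 (signal 41.6, the authors' p = 0.158) and a cWT-specific peak at chr7:140116096-140116834 (signal 39.2, p = 0.0257). Each of these peaks lay at or above percentile 97.6 of its own list by signal. At an end of the gene Gm52217 that lies within Rad21, which encodes a cohesin subunit, the cWT-specific peak (31.6, the authors' p = 0.248) and the cKO-specific peak (38.1, p = 0.0567) overlapped by 20 bp. At Ccnb1 the cWT-specific peak (39.8, the authors' p = 0.311) and the cKO-specific peak (40.6, p = 0.149) overlapped by 60 bp. St6gal1, a sialyltransferase gene, carried its pair inside the gene (36.2 in cKO and 32.7 in cWT, overlap 14 bp). Slamf7, an immune cell receptor gene, had its pair 899 bp from the gene's nearest end (28.5 and 29.2, overlap 22 bp). Capns1, the small calpain subunit gene, had 28.2 and 23.6 with 70 bp shared. Ccdc180 had 38.8 and 38.9 with 75 bp shared. Plekho1 (19.0 and 15.97) had a pair 3 bp apart.

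Neighbouring loci lay at the ends of protein-coding genes more often than other loci. A midpoint within 1000 bp of either end of a coding gene was found for 75 of 365 neighbouring loci (20.5%, exact 95% interval 16.5 to 25.1%) and 1516 of 10833 other loci (14.0%, 13.3 to 14.7%). The odds ratio was 1.59 (95% interval 1.21 to 2.07) with an adjusted p of 0.00228 by a two-sided Fisher's exact test, adjusted by Benjamini-Hochberg over 3 classes. Loci inside coding genes were fewer, 162 of 365 (44.4%) against 5519 of 10833 (50.9%), with an odds ratio of 0.768 and an adjusted p of 0.0215 in the same exact test. This class includes loci at start sites over 1000 bp inside a gene, such as those of Dennd2c and Clasp2. Intergenic loci made up 35.1% of both groups (95% interval of the odds ratio 0.797 to 1.25, adjusted p = 1 in the same exact test). Against the 510 other loci with 2 or more peaks of 1 list, of which 70 (13.7%) were at gene ends, the odds ratio was 1.63 (adjusted p = 0.0204, exact test). Position relative to genes was not used by the rule. The comparison changed under limits on the deposited score, which follows the p-value, or on the signal. For the score limit, loci were built anew, so those left with peaks of 1 list counted as other loci. With each list restricted to peaks at or above its median score, 28 of 181 neighbouring loci (15.5%) and 900 of 5578 other loci (16.1%) were at gene ends (odds ratio 0.951, adjusted p = 0.918, exact test), and among loci with a peak at or above its list's median signal the shares were 19.4% and 16.2% (odds ratio 1.25, unadjusted p = 0.136). The lower share inside genes did not pass the exact test with the same limit on scores (odds ratio 0.899, adjusted p = 0.746) or with a gene-end window of 500 bp (0.831, adjusted p = 0.131).

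**Figure D4:**
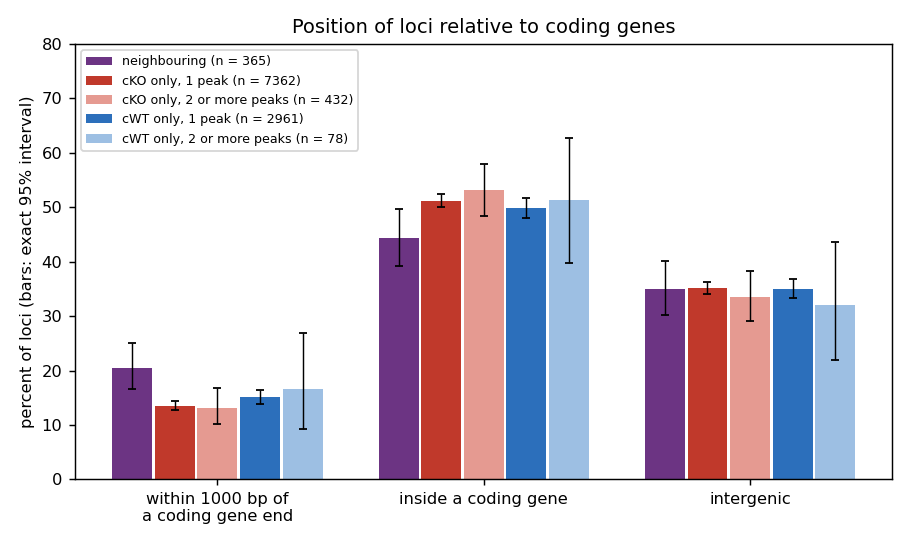
Percent of loci by position relative to protein-coding genes, with exact 95% intervals as bars, for neighbouring loci (purple) and for loci of 1 list with 1 peak or with 2 or more. The neighbouring bar is highest at gene ends (20.5%) and lowest inside genes (44.4%), and intergenic shares lie between 32.1 and 35.2% in all 5 kinds of locus.

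Gene-end loci included genes of general cell functions. The highest cKO scores there belonged to the locus at Gm52217 within Rad21, Znhit1, Tubb2a, Gng10 and H2ac4. Their cKO-specific peaks had signals of 38.1, 26.5, 27.4, 19.2 and 21.1, against 31.6, 19.4, 36.5, 28.6 and 17.8 for the cWT-specific partners in the same order. Znhit1 encodes a chromatin remodelling subunit, Tubb2a a beta-tubulin, Gng10 a G-protein gamma subunit and H2ac4 a histone H2A. The highest cWT scores included those at Echs1, the Gm52217 locus, Cdc42 and Ccnb1. The locus at Cdc42, a GTPase that organises the cytoskeleton and a reported target of miR-137, held cKO-specific peaks of 35.2 and 8.54 around a cWT-specific peak of 21.0, with its midpoint 2 bp from a gene end.

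At coding start sites the lists divided along the gene without a fixed order. A RefSeq coding start site lay within 1000 bp of the midpoint of 61 loci with 1 peak of each list. The cWT-specific peak was the downstream one in 35 and the cKO-specific peak in 26. The start site itself was inside the cKO-specific peak in 25, the cWT-specific peak in 22, both in 1 and neither in 13. Midpoints from the start site had a median of 47.5 bp for cKO-specific peaks (-1374.5 to 1671 bp) and 141 bp for cWT-specific peaks (-697 to 1361.5 bp). Loci with the cWT-specific peak downstream included Trpv2, a cation channel gene (cKO midpoint at 220 bp, cWT at 1073.5 bp, signals 29.7 and 30.9), and Rab20, a phagosomal Rab GTPase gene (367 and 1361.5 bp, signals 25.9 and 27.1). They also included Tlr11, a Toll-like receptor gene of the mouse (-156 and 154 bp, signals 23.7 and 19.9). Loci with the cKO-specific peak downstream included Echs1 (477 and -44 bp), Csf2rb2, a cytokine receptor beta chain gene (608 and 141 bp, signals 38.5 and 26.8), F2r, a thrombin receptor gene (226 and -142.5 bp, signals 22.0 and 26.3), and Psmc2, a proteasome ATPase gene that shares its promoter region with Dnajc2 (-147.5 and -486.5 bp, signals 24.5 and 23.8).

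**Figure D5:**
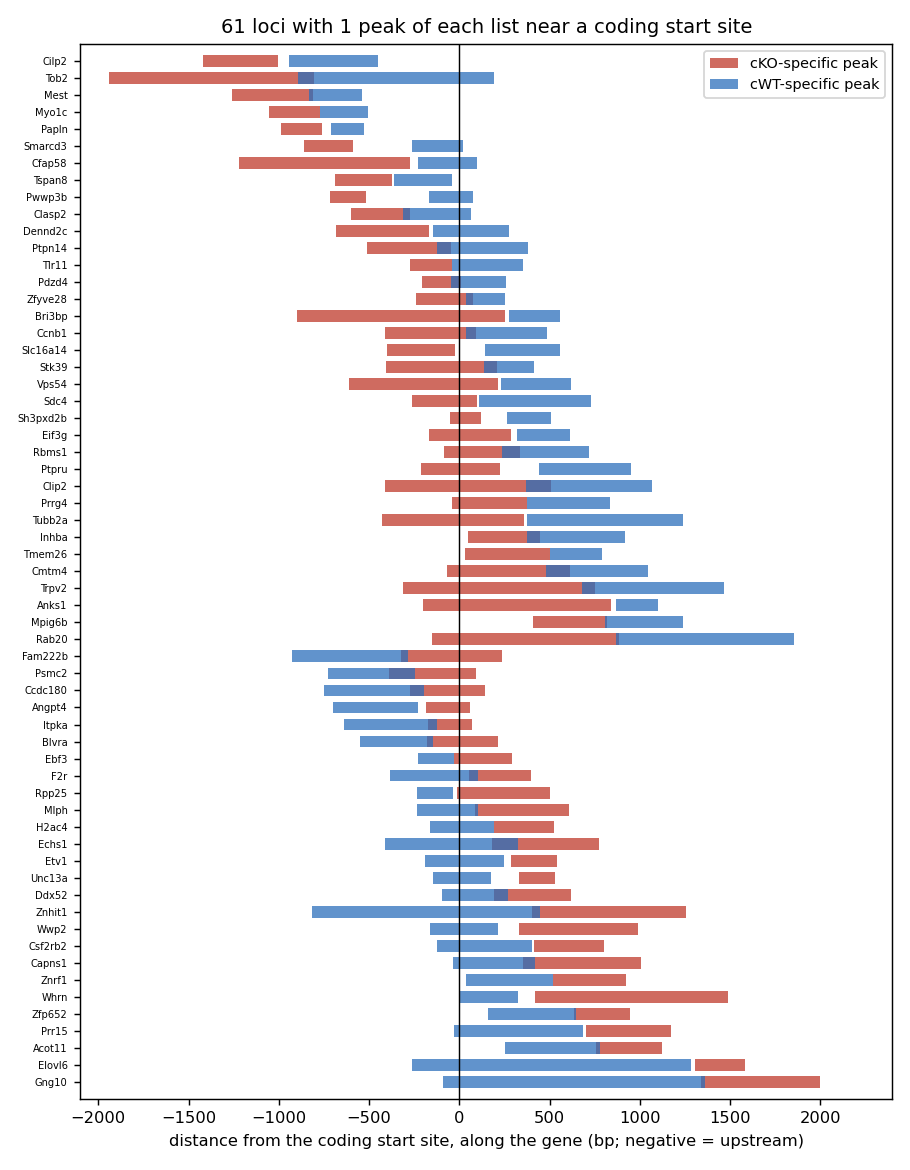
Each row is 1 of 61 loci with a coding start site within 1000 bp, and bars show the cKO-specific (red) and cWT-specific (blue) peak in bp along the gene from the start site at 0, upstream to the left. The upper 35 rows have the cWT-specific peak downstream and the lower 26 the cKO-specific peak, and bars of either colour cross the start site.

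The covered promoters were rich in G and C. Over 60 coding genes with a window covered by a neighbouring locus, 1 window each, the median GC content was 63.5% with 22 CG dinucleotides, against 60.7% and 18 for 689 genes covered by other specific peaks and 56.3% and 13 over all 17492 coding genes with a window. Each of 12 motifs was searched on both strands of these windows, and the letters of none contain another. GGGCGGG (KLF and SP factors) was found in 31 of 60 (51.7%), against 44.4% of the 689 and 33.6% of all. GAGGAAGT (PU.1 and ETS factors) was found in 4 (6.67%, against 2.90% and 3.21%), the IRF motif (GAAA, any pair of bases, GAAA) in 5 (8.33%, against 4.79% and 3.44%) and TGTGGTT (RUNX) in 5 (8.33%, against 3.48% and 4.83%). TGANTCA (AP-1) was found in 1 (1.67%, against 5.95% and 7.08%), and CCAAT (NFY) in 16 (26.7%, against 33.8% and 38.9%). TGACGTCA (CRE) was found in 3 (5%, against 2.03% and 2.21%), TTGCNNAA (C/EBP) in 4 (6.67%, against 9.29% and 10.2%) and CACGTG (E-box) in 4 (6.67%, against 9.58% and 7.75%), and GTCTAGAC (SMAD) and the longer NF-kB and MEF2 motifs in 0 (0.234%, 0.137% and 0.0915% of all windows). Most of these counts are of 5 windows or fewer, and a match describes letters in the window, not bound sites. The groups of windows differ in GC content, so these shares cannot be told apart from base composition, which was not tested.

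Of the 365 loci, 339 were assigned to 333 coding genes by the nearest gene end within 100 kb, which is 1.52% of all 21887 coding genes and 5.45% of the 6109 with any specific peak. Their median distance to that end was 9626 bp. The other 26 loci lay over 100 kb from any coding gene end and were assigned to none. Some of them lie inside a long coding gene, such as Foxp1, Arid1b and Rbfox3. Assigning loci to the gene that holds them first gave 343 genes. Nearness to a gene does not show that the locus acts on it. There were 6 genes with 2 neighbouring loci each. Rad51b, a homologous recombination gene, had 3 cKO and 2 cWT member peaks, with the first locus at chr12:79754854-79755567 (cKO signals 13.2 and 13.2 around a cWT signal of 13.3) and the second at chr12:79807587-79808218 (9.14 and 16.3), both inside the gene. Adap1, which encodes a phosphoinositide-binding GTPase-activating protein for Arf, had pairs 92 bp overlapping (26.4 in cKO, 23.9 in cWT) and 18 bp apart (23.7 and 25.4). Clip2, a microtubule-binding protein gene, had an adjoining pair (23.2 and 23.9) and one overlapping by 135 bp (26.2 and 24.4). Ppp1r9a, which encodes the actin-binding phosphatase partner neurabin, had overlaps of 46 bp (26.0 and 20.9) and 55 bp (11.9 and 7.76). The loci assigned to Taf11, a TFIID subunit gene, lie in its neighbour Anks1, with signals of 37.3 and 8.98 across a 24 bp gap and of 20.1 and 16.7 across 5 bp. Bach2, a bZIP repressor gene, had gaps of 304 bp (20.1 and 9.64) and 381 bp (10.3 and 15.2), the widest among these 6 genes. The genes 8030462N17Rik and Fhl3, a LIM-domain protein gene, each had 1 locus with 2 cKO and 1 cWT member peaks, with highest signals of 14.1 and 15.7.

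Of 19 gene lists with 364 distinct coding genes, chosen for microglial biology and for other cells, 17 genes (4.67%) had a neighbouring locus, against 1.52% of all coding genes. Of the 212 list genes with any specific peak, 8.02% had one, against 5.45% of all genes with a specific peak. The lists were chosen with earlier results of these data known, so these shares are a description and carry no test. Transcription factors of the microglial lineage contributed 4 of 26. At Irf8, a factor required for microglial development, peaks of 13.5 (cKO) and 9.39 (cWT) lay 28 bp apart inside the gene. At Zeb2, which encodes a zinc finger repressor and was named after its values were seen, peaks of 9.20 and 10.2 lay 7 bp apart inside the gene. Near Maf, which encodes a bZIP factor, peaks of 20.7 and 25.3 shared 6 bp at 84896 bp from the gene, and near Mef2c peaks of 12.3 and 16.8 lay 69 bp apart at 71288 bp. Maf had the highest signal of these 4 genes in each list.

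On each of the following lists, 1 receptor or surface protein gene had a neighbouring locus. Receptor genes outside the lists had one as well, among them Slamf7, Csf2rb2 and F2r. Siglech, a microglial lectin gene, had peaks of 26.4 (cKO) and 21.0 (cWT) that shared 4 bp at 30583 bp from the gene, and was 1 of 24 homeostatic genes. Tmem119, P2ry12, Cx3cr1, Gpr34, Csf1r and Sall1 had no neighbouring locus. Over all coding genes 1.52% had one, and 5.45% of those with any specific peak. With shares this low, 0 or 1 gene on a list of this size is not read as a trait of the list. Itgam, the CD11b gene, was 1 of 24 genes of phagocytosis and complement and had peaks of 20.5 and 10.4, 2 bp apart, at 3639 bp from the gene. Cd9, a tetraspanin gene, was 1 of 25 disease-associated genes (21.2 and 15.0, 31 bp apart, inside the gene). Ifngr2, the interferon-gamma receptor beta chain gene, was 1 of 25 JAK-STAT genes (19.0 and 7.99, 28 bp apart, inside the gene). Cd4, the T-cell co-receptor gene, was 1 of 13 lymphocyte genes (17.6 and 18.3, 11 bp shared, 5798 bp away). None of these pairs had both p-values at 0.5 or less.

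Among effectors, Usp18, which removes the ubiquitin-like protein ISG15, was 1 of 22 interferon response genes and had the highest signal of any cWT member (41.0), in a peak sharing 105 bp with a cKO-specific peak of 33.9 inside the gene. Il6, the interleukin 6 gene, was 1 of 24 cytokine genes (25.5 and 24.2, 55 bp shared, 19327 bp away). Npc2, a lysosomal cholesterol carrier gene (19.8 and 18.2, 8 bp apart, 2065 bp away), and Ppara, a nuclear receptor gene of fatty acid oxidation (13.1 and 9.57, 279 bp apart, 63333 bp away), were 2 of 22 lipid genes. Ccnb1 and Aurkb, a mitotic kinase gene (7.34 and 26.5, 292 bp apart, 4056 bp away), were 2 of 23 cell cycle genes. Bach2 was 1 of 24 bZIP genes and Cdc42 1 of 19 reported miR-137 targets. The genes placed on the lists of antigen presentation (20 genes), Toll-like receptor and NF-kB signalling (25), neurons (14), astrocytes (12), the oligodendrocyte lineage (12), vascular cells (12) and other macrophages (14) had 0. In the same order, 14, 17, 3, 8, 4, 7 and 9 genes of these lists had any specific peak. Of all coding genes with a specific peak, 5.45% had a neighbouring locus. These lists do not hold every gene of their kind, and Tlr11 and Map3k14, the gene of the NF-kB inducing kinase, have a neighbouring locus and are not on them. Loci over 100 kb from any coding gene end count for no gene here, such as the pair inside Rbfox3, a gene of neurons.

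Neighbouring loci occurred on every chromosome of the lists. Chromosome 11 held 38 (4.51% of its loci) and chromosome 3 held 11 (1.86%), the highest and lowest shares. The nearest neighbouring locus to Mir137, the deleted gene on chromosome 3, was 2670286 bp away, and the nearest to Tmem119 on chromosome 5 was 6777789 bp away, so neighbouring peaks carry no reading of the deletion or of the Cre locus.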

How the data were processed

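The deposited files used were 1 list of genotype-specific ATAC-seq peaks for cKO and 1 for cWT, without headers and without values per library. Per the submitters' processing notes, the tools were HOMER 4.11, MACS2 2.2.7.1 and Bowtie2 2.4.4 and the build GRCm38 (mm10). The sources used here do not give each tool's step, how replicates were pooled, whether reads were shifted for Tn5, or how specific peaks were chosen. The score that the authors deposited is a fixed multiple of the negative log2 of the p-value, rounded down, for every peak (8615 in cKO, 3490 in cWT). No source states the scale of the deposited signal or the test behind the deposited p-value. The reading of these columns rests on their layout and values. Medians and percentiles of signal were compared within a list. Signals of paired peaks are printed and plotted side by side, but whether both lists share a scale is unknown.

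Positions are 1-based. A gap counts the bases between nearest edges. Loci were classed by midpoint as gene end (within 1000 bp of either end of a coding gene), gene interior or intergenic, with the RefSeq gene table of GRCm38.p6 (21887 coding genes), and compared by Fisher's exact test, two-sided, adjusted by Benjamini-Hochberg over the 3 classes. Genes were assigned by the nearest coding gene end up to 100 kb. Exact 95% intervals are Clopper-Pearson. Members and gene lists were chosen with earlier results of these data known. Named genes are those with the most member peaks, up to 3 per list, the loci with the most members, the 5 longest overlaps, the 5 highest cKO and cWT scores at gene ends, up to 10 pairs with both p-values up to 0.5, the pairs nearest the 500 bp limit, and Mir137 and Tmem119; a few results that this rule names are not reported here. Genes of the printed windows and the other start-site examples were picked with their values in view. The motif search, planned for a genome sequence, used RefSeq start-site windows instead. The locus and class steps were tested on simulated data. Alternatives covered the distance rule, the merging of adjoining peaks, score, p-value, window, gene set, comparison loci and gene assignment, and 2 were added after seeing the data. Software was Python 3.11.15 with scipy 1.17.1, pandas 2.3.3, numpy 2.4.6 and matplotlib 3.10.9.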

Additional observations from a re-analysis of the deposited data

How the results depend on the processing

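The number of neighbouring peaks changed by less than 1.5 times under gap limits of 100, 250 and 1000 bp, a limit on midpoints and the merging of adjoining peaks (cKO peaks 283 to 428). Requiring overlap left 184 cKO peaks, 184 cWT peaks and 184 loci. Peaks at or above their list's median score gave 185 cKO peaks, 181 cWT peaks and 181 loci, and peaks with a p-value up to 0.5 gave 19 of each. The median distance from a cKO-specific to a cWT-specific peak was 218595 bp with the score limit, and the genes with a neighbouring locus numbered 172 with a 10 kb limit. These settings admit fewer peaks or genes by construction. The odds ratio for gene ends stayed above 1 and past the threshold in 10 alternatives (1.39 to 1.81, the last with start sites in place of gene ends), became 0.951 with the score limit and was 1.25, not past the threshold, with the limit on signal that was added after seeing the data. The odds ratio for gene interiors stayed past the threshold in 8 alternatives and did not pass with the score limit (0.899) or the 500 bp window (0.831). The cause of these changes was not tested. The intergenic share passed in none of its 10 alternatives. No paired analysis was possible because the lists carry no columns per library, and for the same reason no replicate could be left out. The depth behind each peak is unknown.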
